A study of Mus musculus with 28 samples.

Results

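The genes described here are 7 genes of MHC class II antigen presentation, H2-Aa, H2-Ab1, H2-Eb1, H2-DMa, H2-DMb1, Cd74 and Ciita, out of 25719 genes counted in mouse tail tendon. They were chosen by name, as the chains of the class II molecules, the helpers that load them with peptide and their transcriptional activator. All 7 passed the filter on low counts in every comparison. Bulk RNA-sequencing was performed on homogenates of tail tendon fascicles from 28 mice, 1 library per mouse, to compare Fosl-2(Tg) transgenic mice (Tg) with non-transgenic controls (WT) before and after tendon fibrosis is established. The early phenotype was represented by 7 WT and 8 Tg mice aged 6 to 8 weeks, all of them male. The established phenotype was represented by 6 WT and 7 Tg mice older than 14 weeks, of which 11 were female and 2 were male, 1 of each genotype. All mice were on the C57BL/6 background. The transgene carried murine Fosl2 at a random insertion site under the class I promoter H2Kb with an eGFP marker, and the WT mice came from the same breeding.

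Class II molecules present peptides from the endosome to CD4+ T cells. H2-Aa and H2-Ab1 encode the alpha and beta chains of the molecule I-A, and H2-Eb1 encodes the beta chain of I-E. Cd74, the invariant chain, occupies the groove during transport, and H2-DM, a heterodimer of H2-DMa and one of its beta chains, helps to exchange the remaining fragment for peptide. Ciita is the class II transactivator, which does not bind DNA itself but acts through RFX, CREB and NF-Y factors on the X and Y boxes upstream of these genes. Class II expression is typical of dendritic cells, B cells and some macrophages, and interferon gamma can induce it in other cells, fibroblasts included.

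Upstream sequence from RefSeq (GRCm38.p6) was at hand for 4 of the 7 genes. The stretches below were chosen because they hold the letters of the boxes through which Ciita acts. Capitals mark TGATTGG, a Y box core, AACTGATG, an X box core, and TGACGTCA, a CREB site; these letters were picked with the sequences in view. Each stretch is written 5′ to 3′ along the gene and lies within 250 bases before the annotated start.
H2-Eb1, chr17:34305758-34305832, plus strand: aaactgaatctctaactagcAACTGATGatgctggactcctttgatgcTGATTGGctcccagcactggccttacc
H2-DMb1, chr17:34153079-34153154, plus strand: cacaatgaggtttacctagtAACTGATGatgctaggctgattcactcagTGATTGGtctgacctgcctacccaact
H2-Aa, chr17:34287847-34287917, minus strand: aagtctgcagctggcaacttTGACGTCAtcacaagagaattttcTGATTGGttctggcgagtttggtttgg

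The Y box core began 61 bases before the start of H2-Eb1, 63 bases before that of H2-DMb1 and 50 bases before that of H2-Aa. The X box core began 89 and 92 bases before the starts of H2-Eb1 and H2-DMb1, so the order and spacing of the boxes were alike in these genes. H2-Aa held no AACTGATG but a CREB site that began 74 bases before its start. The windows before the starts of H2-DMa held none of the 3 motifs. Searched on both strands, where the motifs did not overlap each other, the Y box core was found in 7.23% of 32851 promoters, the X box core in 0.676%, the CREB site in 1.55%, and the Y and X box cores together in 0.0731%. These matches describe letters and not binding.

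In the GRCm39 annotation, 5 of the 7 genes lie in the MHC on chromosome 17. H2-Aa (ENSMUSG00000036594) occupies chr17:34493404-34506798 on the minus strand, H2-Ab1 (ENSMUSG00000073421) chr17:34476663-34488393 and H2-Eb1 (ENSMUSG00000060586) chr17:34504236-34535648. H2-DMa (ENSMUSG00000037649) occupies chr17:34338515-34358958 and H2-DMb1 (ENSMUSG00000079547) chr17:34372046-34379204. Cd74 (ENSMUSG00000024610) lies at chr18:60936899-60945731 and Ciita (ENSMUSG00000022504) at chr16:10297923-10347694. All but H2-Aa are on the plus strand.

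Libraries held 9645598 to 66894396 counts. Levels are given as CPM, read counts scaled to library size, after TMM correction for differences in library composition, and fold changes are those of edgeR's quasi-likelihood test, called at an FDR (Benjamini-Hochberg adjusted over all genes tested) of at most 0.05. Fosl2 itself, whose counts pool the transgene with the endogenous gene, ranged from 63.4 to 156 CPM in early Tg against 58.8 to 136 CPM in early WT mice (FDR 0.918), and from 121 to 160 CPM in established Tg against 78.1 to 169 CPM in established WT mice (FDR 0.141). The genotypes overlapped at both stages. The 7 tendon markers were expressed, and 4 of them were called lower in established Tg mice, beside 534 of 15862 genes tested. These were Scx, Tnmd, Col1a1 and Col1a2, with log2 fold changes of -1.27, -2.03, -2.50 and -2.23. Their FDR were 0.0444, 0.0386, 0.0356 and 0.0367. Mkx, Thbs4 and Fmod were not called (FDR 0.281, 0.333 and 0.167). Established Tg replicates 6 and 7, both female, stood apart from all other mice in the class II genes and carried the last 2 library numbers of the series, and results that rest on them are given with and without them. In homogenates, fewer cells of a type and less RNA per cell cannot be told apart.

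Per kilobase of exon, the tendons of early WT mice contained most H2-DMa, at 3.49 ± 0.726 CPM per kb (SD, n = 7), followed by Cd74 at 1.59 ± 1.39 and H2-DMb1 at 0.724 ± 0.152 CPM per kb. H2-Ab1, H2-Eb1 and H2-Aa followed at 0.461 ± 0.462, 0.400 ± 0.340 and 0.348 ± 0.346 CPM per kb, which did not differ beyond their spread, and Ciita was lowest at 0.209 ± 0.0482 CPM per kb. In established WT mice the 3 class II chains were again within 1 SD of each other, at 0.318 to 0.458 CPM per kb (n = 6). By group medians in established Tg mice, the order was Cd74 at 6.21, H2-DMa at 4.94, H2-Ab1 at 1.30, H2-Eb1 at 1.01, H2-Aa at 0.704, H2-DMb1 at 0.497 and Ciita at 0.326 CPM per kb (n = 7). The level of H2-DMa is uncertain, since 510 of its 4331 exon bases overlap exons of Brd2 on the opposite strand, the kit does not mark strand, and Brd2 was at 138 to 207 CPM. Likewise, 633 of the 11041 exon bases of Ciita overlap Dexi, and H2-Aa and H2-Eb1 share 118 bases. The counts behind low values were small, with as few as 2 reads for H2-Eb1 in 1 early WT library.

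At the early stage, the question was whether class II genes differed between genotypes before fibrosis. The I-A and I-E chains and Cd74 were higher on average in Tg tendons, but none of the 7 genes passed the test, while 0.0396% of all genes tested did. H2-Aa was at 0.321, 0.624 and 3.80 CPM (lowest, median and highest) in 7 WT mice and at 1.17, 2.93 and 12.6 CPM in 8 Tg mice. Of the Tg mice, 3 lay above the highest WT mouse, and the genotypes overlapped. The log2 fold change of H2-Aa was 1.68 ± 0.63 (SE), with an FDR of 0.728. H2-Ab1 was at 0.249, 0.799 and 3.67 CPM in WT and 0.278, 2.02 and 7.85 CPM in Tg mice, a log2 fold change of 1.48 ± 0.61 (FDR 0.775). H2-Eb1 was at 0.208, 0.733 and 2.54 CPM in WT and 0.445, 1.57 and 7.64 CPM in Tg mice, a log2 fold change of 1.41 ± 0.60 (FDR 0.785). These 2 genes showed the same picture, with 3 of 8 Tg mice above every WT mouse. Cd74, the most abundant of the 4, was at 1.56, 2.38 and 9.95 CPM in WT and 4.01, 7.47 and 25.0 CPM in Tg mice. Its log2 fold change was 1.56 ± 0.56 (FDR 0.674), with 4 of 8 Tg mice above every WT mouse.

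The helpers and the activator had closer values in the 2 genotypes at the early stage, and none was called. H2-DMa was at 11.5, 13.5 and 20.5 CPM in WT and 11.0, 13.4 and 16.8 CPM in Tg mice, H2-DMb1 at 0.879, 1.33 and 1.53 CPM against 0.740, 1.03 and 1.77 CPM, and Ciita at 1.62, 2.35 and 3.00 CPM against 1.24, 2.50 and 3.69 CPM. Their log2 fold changes were -0.17 ± 0.13, -0.05 ± 0.22 and 0.02 ± 0.24 (FDR 0.885, 0.980 and 0.990). Before adjustment, 4 of the 7 genes had a p under 0.05, beside 6.06% of all genes, and the median log2 fold change was 1.41 over the 7 genes and -0.01 over all genes. None of the 7 genes separated the genotypes without overlap, as 0.0528% of all genes did. With the replicate number as a block, 11 rather than 6 of all genes were called and still none of the 7, the lowest FDR among them being 0.0738 for H2-Aa. Mice of high and low class II level were not spread evenly over the libraries, for the 5 early mice with the highest H2-Aa, 4 Tg and 1 WT, carried consecutive library numbers. The part of this in the result was not tested.

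**Figure D1:**
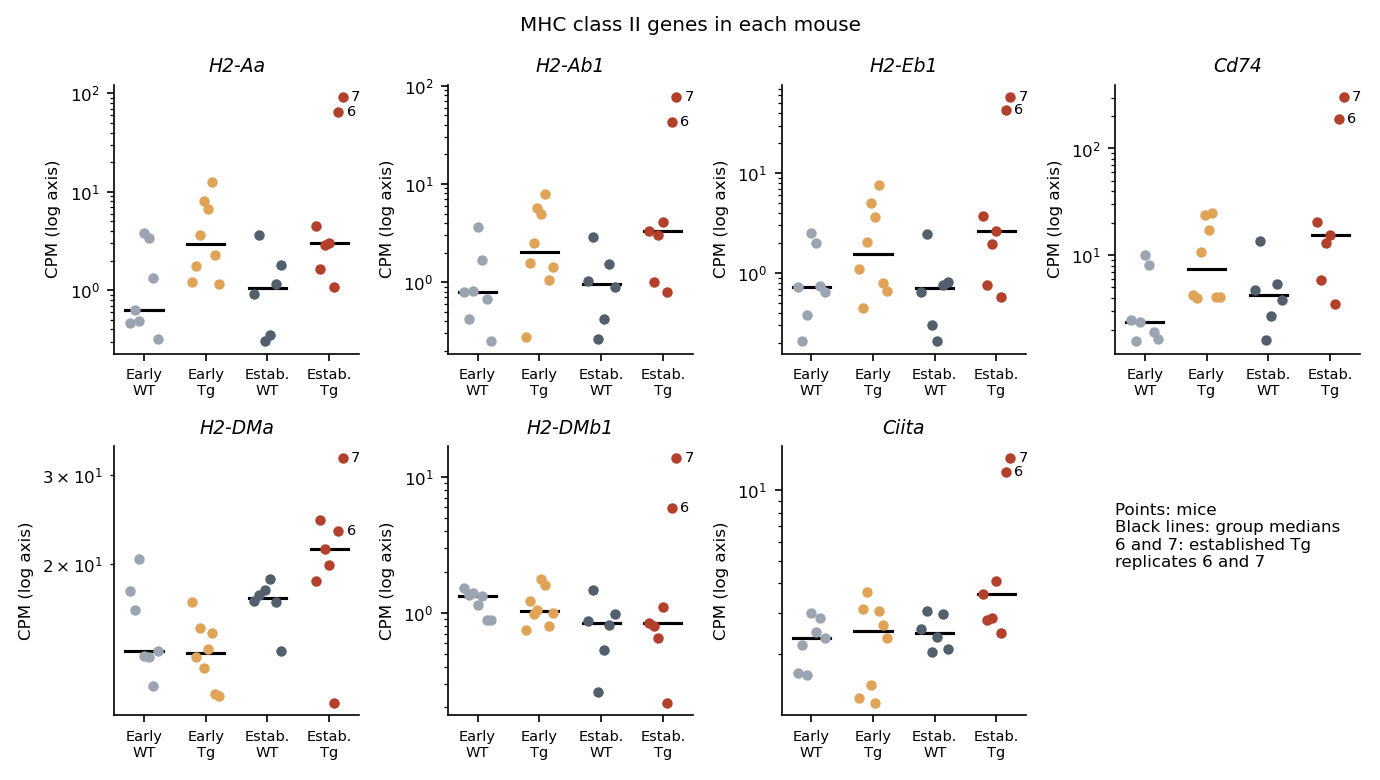
CPM of the 7 class II genes on log axes, one point per mouse in the 4 groups, with group medians as black lines. Established Tg replicates 6 and 7 (numbered) lie above all other mice for every gene but H2-DMa, where only replicate 7 does, and at the early stage the genotypes overlap for all 7 genes.

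In established fibrosis, class II transcripts were higher in Tg tendons by a large factor on average, and the difference came to a great extent from 2 of 7 Tg mice. Of the 7 genes, Cd74 was called, at an FDR of 0.0473, while 3.14% of all genes were called higher. H2-Aa was at 0.303, 1.04 and 3.66 CPM in 6 WT mice and at 1.08, 3.02 and 92.4 CPM in 7 Tg mice (log2 fold change 4.17 ± 1.20, FDR 0.0529). H2-Ab1 was at 0.260, 0.964 and 2.91 CPM in WT and 0.794, 3.34 and 77.5 CPM in Tg mice (log2 fold change 3.99 ± 1.14, FDR 0.0526). H2-Eb1 was at 0.209, 0.704 and 2.46 CPM in WT and 0.577, 2.62 and 58.3 CPM in Tg mice (log2 fold change 4.19 ± 1.19, FDR 0.0512). The 3 chains therefore missed the threshold narrowly. Cd74 was at 1.60, 4.27 and 13.6 CPM in WT and 3.46, 15.6 and 306 CPM in Tg mice (log2 fold change 3.89 ± 1.08). For Cd74 and H2-Eb1, 4 of 7 Tg mice exceeded every WT mouse, and the lowest Tg mouse lay within the WT range.

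Ciita was at 2.04, 2.46 and 3.05 CPM in WT and 2.45, 3.60 and 13.7 CPM in Tg mice, a log2 fold change of 1.23 ± 0.42 that was not called (FDR 0.0907). For H2-DMb1, at 0.260, 0.841 and 1.47 CPM in WT and 0.217, 0.835 and 13.8 CPM in Tg mice, the medians were almost equal, and the log2 fold change was 2.05 ± 0.84 (FDR 0.144). H2-DMa was at 13.5, 17.2 and 18.7 CPM in WT and 10.7, 21.4 and 32.3 CPM in Tg mice (log2 fold change 0.36 ± 0.18, FDR 0.234). None of the 7 genes separated the genotypes without overlap, while 3.81% of all genes did. The median log2 fold change over the 7 genes was 3.89, beside 0.01 over all genes. The number called depended on the fit, with 5 of 7 by DESeq2, 6 of 7 when all 28 mice entered 1 fit, and 0 of 7 in females only or with sex as a covariate. Over all genes, calls in either direction also moved, to 2177, 1663, 560 and 1464 in these 4 fits, against 1032 in the main fit. Cd74 lost its call in 11 of 13 fits that each left out 1 mouse. The exceptions were the fits without Tg replicate 4 or Tg replicate 5, in each of which Cd74 and the 3 chains were called.

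Tg replicates 6 and 7 set the size of these differences. H2-Aa was at 65.2 and 92.4 CPM in these mice, against 1.08 to 4.50 CPM in the other 5 Tg mice, or 22.5 and 32.0 times the median of those 5. Cd74 was at 188 and 306 CPM in them and at 3.46 to 20.4 CPM in the other 5. Ciita was at 11.9 and 13.7 CPM against 2.45 to 4.08 CPM, and H2-DMb1 at 5.96 and 13.8 CPM against 0.217 to 1.11 CPM. The class II chains were thus raised by a larger factor than the activator, which was 4.20 and 4.82 times its median in the others. H2-DMa moved least, with 23.2 CPM in replicate 6, inside the range of the other 5 Tg mice (10.7 to 24.4 CPM), and 32.3 CPM in replicate 7. Without these mice, none of the 7 genes was called, while 5.04% of all genes were called higher, and the log2 fold changes of the 3 chains and Cd74 were 0.95 ± 0.58, 1.03 ± 0.58, 1.13 ± 0.63 and 1.13 ± 0.54 for H2-Aa, H2-Ab1, H2-Eb1 and Cd74 (FDR 0.305, 0.262, 0.255 and 0.187). Those of Ciita and H2-DMa were 0.32 ± 0.17 and 0.17 ± 0.17, and that of H2-DMb1 turned to -0.15 ± 0.41.

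**Figure D2:**
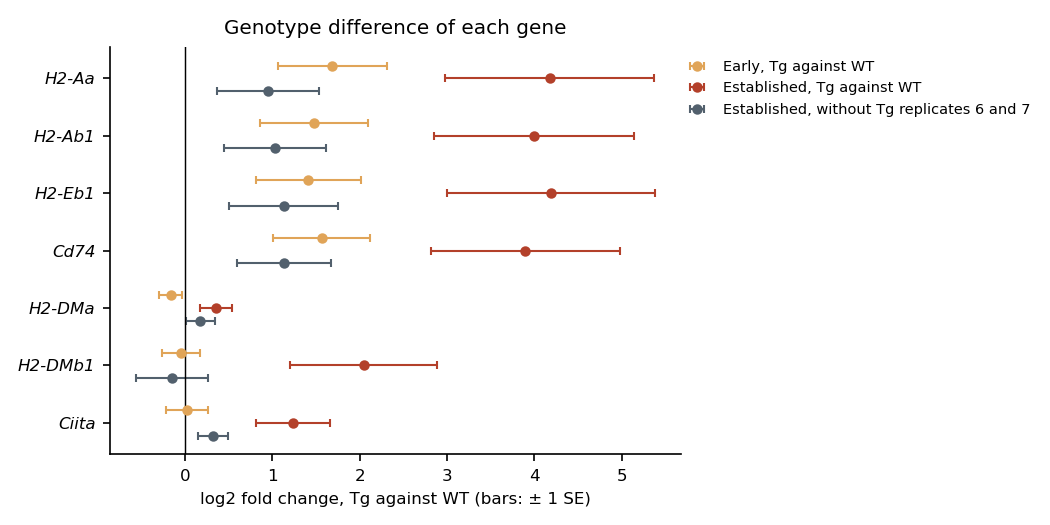
Log2 fold change of each gene between Tg and WT mice from edgeR fits, with bars of 1 SE, at the early stage, at the established stage and at the established stage without Tg replicates 6 and 7. Without these mice the established values of the 3 class II chains fall from about 4 to between 0.95 and 1.13, below the early ones.

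Markers of several immune cell types were at hand in the same mice. Itgax, the integrin chain CD11c found on dendritic cells and some macrophages, was at 3.52 and 14.5 CPM in Tg replicates 6 and 7 and at most at 0.914 CPM in the other 26 mice. Cd209a, a lectin of monocyte-derived dendritic cells, was at 1.76 and 0.99 CPM against at most 0.257 CPM. Ccr2, the chemokine receptor of monocytes, was at 34.0 and 34.9 CPM against at most 14.8 CPM, and the 4 monocyte markers, of which it is one, summed to 34.4 and 35.4 CPM against 1.30 to 8.11 CPM in the other 5 Tg mice. Ccr7, the receptor of migrating dendritic cells, was at 0 CPM in replicate 6 and 0.342 CPM in replicate 7, against at most 0.0925 CPM in the other 26 mice. Clec10a, a lectin of dendritic cells and macrophages, was at 4.74 and 6.70 CPM, of which the second lay above the other 26 mice (at most 6.49 CPM). Of the 3 dendritic cell markers tested, Clec10a rose in established Tg mice (log2 fold change 1.13 ± 0.21, FDR 0.0136), also without replicates 6 and 7 (1.00 ± 0.21, FDR 0.0164). Over all genes, 3.14% were called higher in the first fit and 5.04% in the second. Flt3 and Xcr1 were at 0 to 0.135 CPM in both mice, and Zbtb46 and Clec9a did not exceed the other Tg mice. The 8 dendritic cell markers summed to 45.0 and 41.5 CPM in replicates 6 and 7, to 27.3 to 53.3 CPM in the other 5 Tg mice and to 16.6 to 32.3 CPM in established WT mice.

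The 12 macrophage markers summed to 1004 and 1205 CPM in these mice and to 865 to 1129 CPM in the other 5 Tg mice, compared with 642 to 908 CPM in established WT mice. Adgre1 was at 48.1 and 55.1 CPM in replicates 6 and 7 and at 22.2 to 39.4 CPM in the other 5 Tg mice. Cd68 was at 22.3 and 28.4 CPM against 12.5 to 19.4 CPM, and C1qb at 85.3 and 104.7 CPM against 61.0 to 83.5 CPM. Over the other 26 mice, Adgre1, Cd68 and C1qb reached 53.1, 33.9 and 101 CPM. The rest of the 12 did not exceed the other 5 Tg mice in both replicates. Of these 12 genes, Cd163 and Lyve1 rose in established Tg mice (log2 fold change 1.06 ± 0.14 and 0.69 ± 0.19, FDR 0.00465 and 0.0456) and Cx3cr1 fell (-1.81 ± 0.28, FDR 0.00804), with the same calls without replicates 6 and 7. Over all genes, 3.14% were called higher with these 2 replicates and 5.04% without them. B cell markers were near the floor, with the 7 genes summing to 0.677 and 0.951 CPM in the 2 mice and to 0.433 to 1.36 CPM in the other established mice. The 7 T cell markers summed to 1.35 and 2.02 CPM against 1.12 to 2.09 CPM, and the 6 markers of Langerhans cells and keratinocytes to 1.96 and 2.02 CPM against 1.73 to 3.82 CPM. Skeletal muscle markers, 4 genes, summed to 83.0 and 1048 CPM, within the 24.8 to 2233 CPM of the other 5 Tg mice. The 4 erythroid markers summed to 2.23 and 8.68 CPM, against 7.50 to 115 CPM in the other 5 Tg mice and 1.08 to 12.2 CPM in established WT mice. The part of any cell type in the class II result was not tested.

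Whether the genotype difference changed with stage was tested by an interaction term. None of the 7 genes was called, while 7.43% of all genes were. The estimates were 2.47 ± 1.28 for H2-Aa, 2.50 ± 1.25 for H2-Ab1, 2.76 ± 1.28 for H2-Eb1 and 2.31 ± 1.14 for Cd74 on the log2 scale, with FDR of 0.175 to 0.226. Those of H2-DMb1, Ciita and H2-DMa were 2.09 ± 0.85, 1.20 ± 0.49 and 0.51 ± 0.23 (FDR 0.125 to 0.155). Without replicates 6 and 7 the estimates of H2-Aa, H2-Ab1, H2-Eb1 and Cd74 were -0.72, -0.43, -0.27 and -0.42. A larger genotype difference in established than in early tendons was thus not shown for any of these genes.

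Between the stages, class II genes of WT tendons did not differ detectably, as 0 of 7 were called (5.81% of all genes were), with log2 fold changes from -0.55 for H2-DMb1 to 0.44 for Cd74. In Tg tendons all 7 genes were called higher at the established stage, where 25.8% of all genes were called higher. The log2 fold changes were 2.75 ± 0.77 for Cd74 (FDR 0.00478), 2.55 ± 0.81 for H2-Ab1 (FDR 0.0112), 2.52 ± 0.82 for H2-Eb1 (FDR 0.0129) and 2.35 ± 0.83 for H2-Aa (FDR 0.0213). Those of H2-DMb1, Ciita and H2-DMa were 1.53 ± 0.57 (FDR 0.0279), 1.32 ± 0.33 (FDR 0.00196) and 0.68 ± 0.15 (FDR 0.000782). Without replicate 7, 3 of 7 were called, beside 24.2% of all genes called higher, and without replicate 6, 5 of 7, beside 23.8%. Without both, 1 of 7 was called, beside 23.8% of all genes, and this was H2-DMa (0.48 ± 0.15, FDR 0.00901). Without both, the log2 fold changes of H2-Aa, H2-Ab1, H2-Eb1 and H2-DMb1 were -0.89, -0.42, -0.54 and -0.67, and that of Cd74 was -0.03. Stage and sex cannot be told apart here, since early mice were male and 11 of 13 established mice female, and the established Tg male had the lowest level of its group in all 7 genes.

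Within groups, the class II chains and Cd74 moved together from mouse to mouse. Over 28 mice, after the 4 group means had been removed from the log2 CPM, Pearson's r was 0.92 to 0.97 among H2-Aa, H2-Ab1, H2-Eb1 and Cd74. It was 0.80 to 0.85 between these genes and H2-DMb1, and 0.27 to 0.41 between them and H2-DMa. Without replicates 6 and 7 the first range was 0.84 to 0.94 (n = 26), and in early mice alone 0.79 to 0.94 (n = 15). These genes share libraries and depth, and the values are a description.

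Ciita followed the other genes less closely. Its r with H2-Aa, H2-Ab1, H2-Eb1, H2-DMb1 and Cd74 was 0.63 to 0.72, with p from 0.0044 to 0.0127 by permutation within groups (100000 resamples, two-sided) and 0.013 to 0.0153 after adjustment over 6 relations. Spearman's rho was 0.43 to 0.59, with permutation p from 0.00355 to 0.0383 and 0.0213 to 0.046 after adjustment. For H2-DMa, r was 0.27 and rho -0.01 (adjusted p 0.358 and 0.970 by permutation). Tg replicates 6 and 7 were the mice farthest from the median of Ciita, and when their points were dropped r was 0.36 to 0.47 for the 5 genes. With group means recomputed over the other 26 mice, r was 0.17 to 0.32 with an adjusted permutation p of 0.489 for each, so the relation of Ciita to the other genes rests on these mice. Within groups, r of Ciita with Cd74 was 0.42 in 7 early WT, -0.17 in 8 early Tg, 0.84 in 6 established WT and 0.98 in 7 established Tg mice. Among early Tg mice the 3 with the highest Cd74, at 25.0, 24.0 and 17.1 CPM, had Ciita at 3.04, 1.48 and 1.24 CPM.

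**Figure D3:**
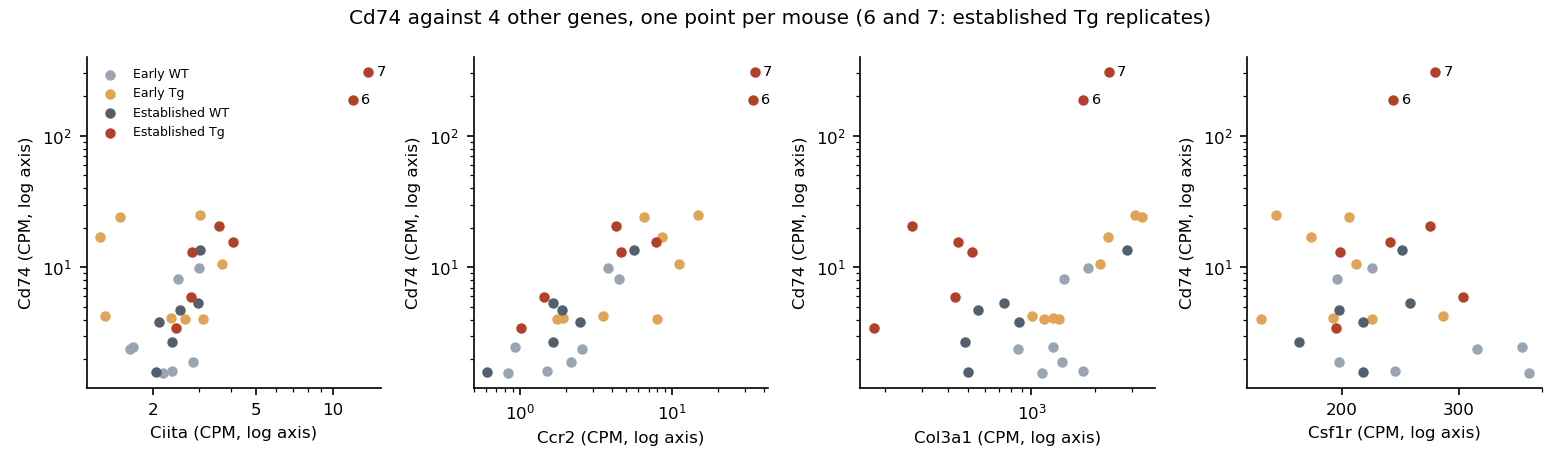
Cd74 against Ciita, Ccr2, Col3a1 and Csf1r, in CPM on log axes, one point per mouse colored by group. Replicates 6 and 7 of the established Tg group are high in Ciita and Ccr2 as well as Cd74, but within the range of the other mice in Col3a1 and in Csf1r, a receptor of macrophages.

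Of 5 relatives of the class II genes, none passed the filter on low counts. H2-Ea, the alpha chain of I-E, which C57BL/6 mice are known not to express, had 1 read in all 28 libraries together, so that H2-Eb1 transcripts were present without those of their partner. H2-Eb2 and H2-Oa had 1 and 3 reads. H2-DMb2, the second beta chain of H2-DM and a close copy of H2-DMb1 with which reads may be shared, was at 0.745 and 1.60 CPM in established Tg replicates 6 and 7 and at most at 0.351 CPM in the other mice. H2-Ob, a chain of the H2-DM inhibitor H2-O, was at 0.203 and 0.609 CPM against at most 0.334 CPM.

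None of the factors that bind the X and Y boxes was called between genotypes. Of 7 subunits of RFX and NF-Y and Creb1, 0 were called at either stage. Over all genes, 0.0396% were called early and 1032 of 15862 at the established stage. The median log2 fold change of the 7 was -0.09 early and 0.06 at the established stage. The lowest FDR among them was 0.078, for Rfx5 at the established stage (0.26 ± 0.085). The most abundant of them were Creb1, at 64.7 ± 5.51 CPM in established WT (SD, n = 6) and 70.0 ± 6.55 CPM in established Tg mice (SD, n = 7), and Nfya at 35.3 ± 5.44 and 41.8 ± 5.00 CPM (FDR 0.327 and 0.156). Of 8 genes of the interferon gamma axis, 7 were tested and Ifngr1, the ligand-binding receptor chain, was called higher in established Tg mice, at 55.7 ± 7.10 CPM in WT and 99.9 ± 22.5 CPM in Tg mice (log2 fold change 0.85 ± 0.14, FDR 0.00929). In that fit 3.14% of all genes were called higher. Ifng itself was at no more than 0.163 CPM in any mouse. Unlike the class II genes, Ifngr1 was not raised by replicates 6 and 7, which were at 109 and 79.3 CPM within a Tg range that reached 147 CPM. Without them Ifngr1 kept its call (0.88 ± 0.15, FDR 0.00801). Ifngr2 and the feedback inhibitor Socs1 were then called lower (-0.59 ± 0.15 and -0.89 ± 0.24, FDR 0.0288 and 0.0390). Over all genes, 1591 of 15928 were called in that fit, 803 of them higher.

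Among 9 genes of endosomal processing, 2 rose in established Tg mice, beside 3.14% of all genes called higher. Ctss, the protease cathepsin S that trims the invariant chain, was at 42.9 ± 9.37 CPM in WT and 93.2 ± 40.6 CPM in Tg mice (log2 fold change 1.13 ± 0.25, FDR 0.0228). Marchf1, the ubiquitin ligase that removes class II molecules from the cell surface, was at 7.08 ± 1.71 and 13.5 ± 2.56 CPM (log2 fold change 0.94 ± 0.17, FDR 0.0129). In both Ctss and Marchf1 the established genotypes did not overlap, as was the case for 3.81% of all genes. The median of the 9 genes was -0.11. Both calls held without replicates 6 and 7, at 0.92 ± 0.20 and 0.89 ± 0.18 (FDR 0.0190 and 0.0141). Co-stimulatory genes gave no call among 5 tested of 6, beside 0.0396% of all genes called early and 1032 of 15862 at the established stage. Cd86, a ligand of CD28, had log2 fold changes of -0.62 ± 0.17 early and -0.20 ± 0.16 at the established stage (FDR 0.449 and 0.444), and Icosl, the ligand of ICOS, -0.71 ± 0.22 and -0.43 ± 0.19 (FDR 0.624 and 0.157).

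Class I presentation, which serves CD8+ T cells and has the activator Nlrc5, was compared as the nearest counterpart. The median log2 fold change of its 9 genes at the established stage was 0.37, against 3.89 for the class II genes. Without Tg replicates 6 and 7 these medians were 0.437 and 0.945. Of the 9, 2 were called higher in established Tg mice, beside 3.14% of all genes. These were Psmb8, a subunit of the immunoproteasome, at 1.84 ± 0.184 CPM in WT and 2.83 ± 0.548 CPM in Tg mice (0.62 ± 0.15, FDR 0.0277), and Tap2, a chain of the peptide transporter, at 13.0 ± 1.24 and 16.8 ± 2.14 CPM (0.37 ± 0.10, FDR 0.0379). Replicates 6 and 7 were not the highest Tg mice in either gene, with 3.05 and 3.08 CPM of Psmb8 and 14.9 and 14.8 CPM of Tap2, and both calls held without them (FDR 0.0466 and 0.0237). At the early stage none of the genes in these lists was called, beside 0.0396% of all genes. The 2 class I genes then had log2 fold changes of -0.72 ± 0.25 and -0.68 ± 0.29 (FDR 0.662 and 0.782). A difference between the class I and class II changes was not tested.

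**Figure D4:**
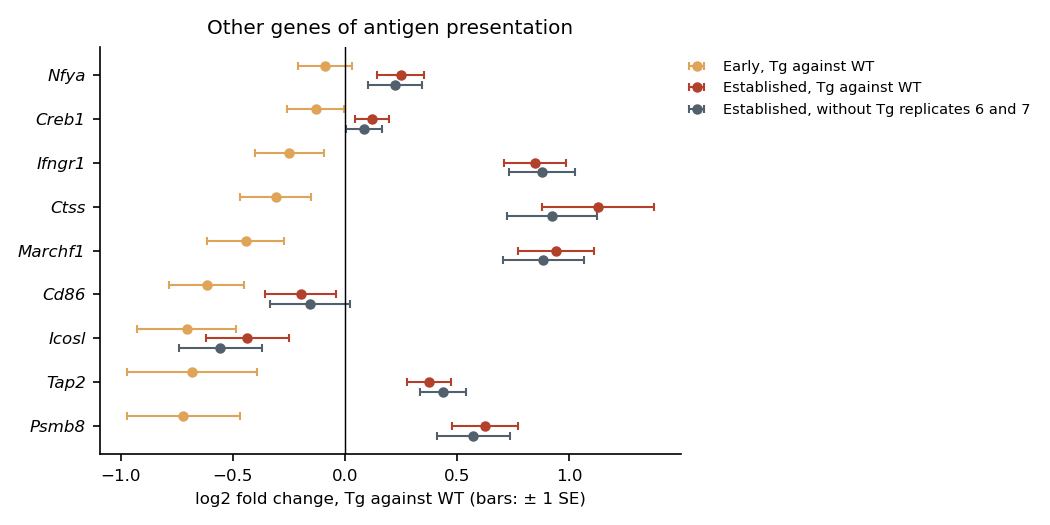
Log2 fold change between Tg and WT mice, with bars of 1 SE, of 9 other antigen presentation genes at the early stage, at the established stage and at the established stage without Tg replicates 6 and 7. For these genes the established values with and without replicates 6 and 7 lie close together, as for Ctss at 1.13 and 0.92.

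The genes whose pattern over mice was most like that of the class II genes were sought by Pearson's r with the mean log2 CPM of the 7 genes, after removal of group means, among 14573 genes with a mean of at least 1 CPM. The 10 genes with the highest r were Cpxm1 (0.91), Ccbe1 (0.91), Pxdn (0.90), Ccr2 (0.90), Srpx2 (0.90), Cthrc1 (0.89), Tmem26 (0.89), Cd52 (0.89), Col3a1 (0.89) and Timp1 (0.88). Besides Ccr2 and the leukocyte surface protein Cd52, they include genes of matrix and its turnover, such as Col3a1, the chain of type III collagen, Cthrc1, a secreted protein of activated fibroblasts, Pxdn, an enzyme of basement membrane collagen, and the protease inhibitor Timp1. None of the 10 was called between genotypes at either stage. In established Tg replicates 6 and 7, Col3a1 was at 1762 and 2326 CPM and in the other 5 Tg mice at 178 to 521 CPM, while established WT mice spanned 481 to 2862 CPM. Cthrc1 was at 27.6 and 25.8 CPM against 0.505 to 1.40 CPM in the other Tg mice, and Timp1 at 30.9 and 46.8 CPM against 4.11 to 11.5 CPM. Without these mice r was 0.70 to 0.84 (n = 26). Ccr2 then ranked 2 among the 14573 genes compared, and the other 9 ranked from 12 (Pxdn) to 92 (Cd52). These 9 thus left the top 10 without replicates 6 and 7 but stayed high in the ranking. Unlike the class II genes other than H2-DMa, Cpxm1, Pxdn, Srpx2, Cthrc1, Col3a1 and Timp1 in replicates 6 and 7 stayed within the range of the other 26 mice. In those 26 mice, Cthrc1 reached 54.3 CPM and Timp1 49.3 CPM, both in early Tg mice. Within the established stage, both replicates exceeded every other mouse in Cpxm1 (48.5 and 76.1 CPM), Srpx2 (41.6 and 47.5 CPM), Cthrc1 and Timp1. The highest established WT mice were at 40.5, 35.25, 14.65 and 14.54 CPM in these genes. In Pxdn and Col3a1 both replicates lay within the established WT range.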

How the data were processed

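Deposited values were whole-number counts per gene for 28 libraries, 1 file each. The authors mapped reads with STAR to GRCm39 (GENCODE M26) and counted them with featureCounts; per the study's methods, ribosomal RNA had been depleted and libraries made with the NEBNext Ultra RNA kit. That this kit does not mark strand is general knowledge and not from the study; strand and multi-mapping settings of the counting are not given in the sources used here. Identifiers were named with GENCODE M39 (25505 of 25719).

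Groups came from the labels, and the ages from the study's methods. Genes passed filterByExpr (minimum count 10, minimum total 15). Tg and WT were compared within each stage, and stages and the interaction in a fit of 28 mice, with edgeR 4.0.16 in R 4.3.3 (TMM, quasi-likelihood test, Benjamini-Hochberg). For correlations, 2 was added as prior count before taking log2 of CPM. The fits were checked on simulated counts. Depth ran from 9645598 to 66894396 counts. Groups were of separate mice, and no 2 libraries of a group agreed within sampling noise.

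The genes named were the 7 members, genes of fixed pathway lists called at either stage or otherwise the 2 most abundant of a list, and the 10 genes most like the members; markers shown beside replicates 6 and 7 were chosen after their values were seen. Members and lists were chosen with earlier results of these data known. Alternatives were DESeq2 1.42.0, RLE scaling, other filters, the replicate number as a block, sex, all 28 mice, and each mouse left out; leaving out established Tg replicates 6 and 7 was added after the data had been seen.

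Replicate numbers are shared by the genotypes of a stage. Over genes with a mean of at least 1 CPM, deviations of same-numbered early mice correlated at 0.160 to 0.413 in all 7 pairs. The correlation was highest with the own number in only 1 of the 7, so whether the numbers pair early mice was not settled. The main early test was therefore unpaired, and the replicate block is given as an alternative. In established mice 4 of 6 pairs were above 0.1 (-0.276 to 0.729), and the numbers were not taken to pair them.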

Additional observations from a re-analysis of the deposited data

Results flagged for a closer look

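Dixon's test compares a mouse's gap to its nearest neighbor with the group's range. Of 28 sets of values (7 genes in 4 groups), 5 held a mouse past its 95% limit. Chance gives about 1 in 20 for independent, normally distributed values. The CPM tested were skewed, and several of the genes moved together from mouse to mouse, so the 5 cannot be read against that rate. In established Tg mice, H2-DMb1 was at 13.8 CPM in replicate 7. In established WT mice, replicate 2 was highest in H2-Eb1 at 2.46 CPM and in Cd74 at 13.6 CPM, and replicate 6 was lowest in H2-DMa at 13.5 CPM. In early WT mice, H2-Ab1 was at 3.67 CPM in replicate 4. In the class II chains and Cd74, established Tg replicates 6 and 7 were not singled out in this way, since each was the other's nearest neighbor.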

How the results depend on the processing

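Read depth limited the low genes, with as few as 2 reads of H2-Eb1 in a library, and group sizes of 6 to 8 mice together with 2 extreme mice limited the established comparison. No library was left out of any main value.

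At the early stage, DESeq2 called 25 genes and the replicate block 11, against 6, and none of the 7 class II genes was called under any alternative. The log2 fold change of Ciita turned to -0.032 with the block. With each mouse left out in turn, 4 to 12 genes were called (12 without WT replicate 4), and H2-DMb1 ran from -0.17 to 0.03 and Ciita from -0.10 to 0.12.

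At the established stage, where 1 of 7 was called in the main analysis, the number was 5 with DESeq2, 6 with all 28 mice in 1 fit, and 0 with no filter on low counts, with the replicate block, in females only, with sex as a covariate, or without Tg replicates 6 and 7. Over all genes, 1032 were called in the main analysis, 2177 with DESeq2, 560 in females only, 1663 with all 28 mice and 1591 without Tg replicates 6 and 7, where H2-DMb1 turned to -0.15. Leaving out 1 mouse gave 0 to 4 class II genes and 361 to 1166 genes (361 without WT replicate 1). The established numbers were not taken to pair mice; each mouse correlated best with its own number in 2 of 6 pairs, and in 1 of 7 at the early stage. Tg replicate 7 has no WT partner, so the block gives it no weight.

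For the interaction, 2000 genes were called with the replicate block and 725 without the 2 established males, against 1195. Without Tg replicates 6 and 7 the estimates turned to -0.73 for H2-Aa, -0.43 for H2-Ab1, -0.27 for H2-Eb1, -0.094 for H2-DMb1 and -0.42 for Cd74. Leaving out 1 mouse gave 0 to 1 class II genes (H2-DMa without Tg replicate 5) and 702 to 1876 genes.

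Between stages in WT mice, 1561 genes were called with DESeq2 and 2 in males only (1 established mouse), against 935, and H2-Ab1 turned to -0.019 with DESeq2 and -0.068 without the 2 established males. Leaving out 1 mouse gave 419 to 1391 genes, with H2-Aa from -0.81 to 0.25, H2-Ab1 from -0.49 to 0.62, H2-Eb1 from -1.005 to 0.098 and Cd74 from -0.12 to 0.81. In Tg mice, 1 of 7 was called without Tg replicates 6 and 7, with H2-Aa at -0.89, H2-Ab1 at -0.42, H2-Eb1 at -0.54, H2-DMb1 at -0.67 and Cd74 at -0.026. The males-only values in Tg mice set a single established mouse, assumed to vary like the other groups, against 8, and describe that mouse: 4558 genes were past the threshold against 7685, and 1 of 7, H2-DMb1 at -2.37. H2-Aa was at -2.12, H2-Ab1 at -2.001, H2-Eb1 at -2.23, H2-DMa at -0.32 and Cd74 at -1.75. Leaving out 1 mouse gave 3 to 7 class II genes, 3 without Tg replicate 7. The replicate block could not be estimated for stages, since numbers are nested in them. The cause of these changes was not tested.

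The correlation of Ciita over leave-one-out fits ran from 0.50 to 0.70 with H2-Eb1, 0.57 to 0.79 with H2-DMb1 and 0.53 to 0.73 with Cd74, and missed the threshold in 2, 1 and 1 of them.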
